A study of Mus musculus with 3 samples.

Results

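Conventional natural killer (NK) cells are described here as barcodes of mouse liver, chosen by their UMIs of 12 genes, that carried an NK receptor transcript and transcripts of Eomes, Klra8, Klra4 or S1pr5. A barcode needed at least 200 detected genes, at most 20% mitochondrial UMIs (unique molecular identifiers, each counting 1 captured transcript) and at least 1 UMI of Ncr1 or Klrb1c. It could hold at most 1 UMI of Cd3d and Cd3e together and at most 5 of Ifng. The sum of Eomes, Klra8, Klra4 and S1pr5 had to reach 2, and the sum of the ILC1 genes Cxcr6, Itga1 and Gzmc could not pass 1. This gate held 62 of the 3230 kept barcodes (1.92%, exact binomial 95% interval 1.47 to 2.45%) and of 4638 in all. Of them, 11, 41 and 10 lay in the libraries of barcode suffixes 1, 2 and 3.

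The mice were of the Ai14 (LSL-Tomato) strain and make a red fluorescent protein once Cre recombinase has cut out a stop cassette. They were injected with 20a-LNP or 20mix-LNP, lipid nanoparticles that carried Cre mRNA at 0.3 mg/kg, or with PBS, and the non-parenchymal cells of the liver were flow-sorted 3 h later. Each treatment has 1 library of droplet 3' RNA sequencing, and no age, sex or number of mice was used. No source used here ties a suffix to a treatment, so the effects of the particles are not reported, libraries are named by suffix, and no test was run.

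NK cells are innate lymphocytes that kill infected or transformed cells by releasing perforin and granzymes, and that secrete interferon gamma. The liver holds them beside type 1 innate lymphoid cells (ILC1), which stay in the tissue and share many receptors with them. Conventional NK cells circulate, depend on the transcription factor Eomes and, in mice, carry inhibitory and activating Ly49 receptors that read MHC class I. Along their maturation they lose CD27 and gain CD11b (encoded by Itgam) and KLRG1.

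The members were set against an ILC1 gate in mirror image, with the same conditions except that the ILC1 sum had to reach 2 and the NK sum could not pass 1; it held 391 barcodes, 70, 166 and 155 by suffix. Depth was close: the median conventional NK barcode had 6960 UMIs and 2221 genes, and the median ILC1 barcode 6242 UMIs and 2198 genes. The conventional NK sum rested on 472828 UMIs and the ILC1 sum on 2398428. Levels are UMIs per 1000000 UMIs of the summed gate (CPM), and intervals are exact 95% intervals that cover counting error only, not variation between animals. Of the kept barcodes, 621 had an NK receptor transcript and at most 1 Cd3 UMI. Conventional NK cells were 9.98% of these (7.74 to 12.6%). By suffix they were 9.02%, 15.1% and 4.41%, so the library of suffix 2 stood highest and gave most members. These are shares of sorted barcodes, and how far the sort or the filter shaped them was not tested.

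**Figure D1:**
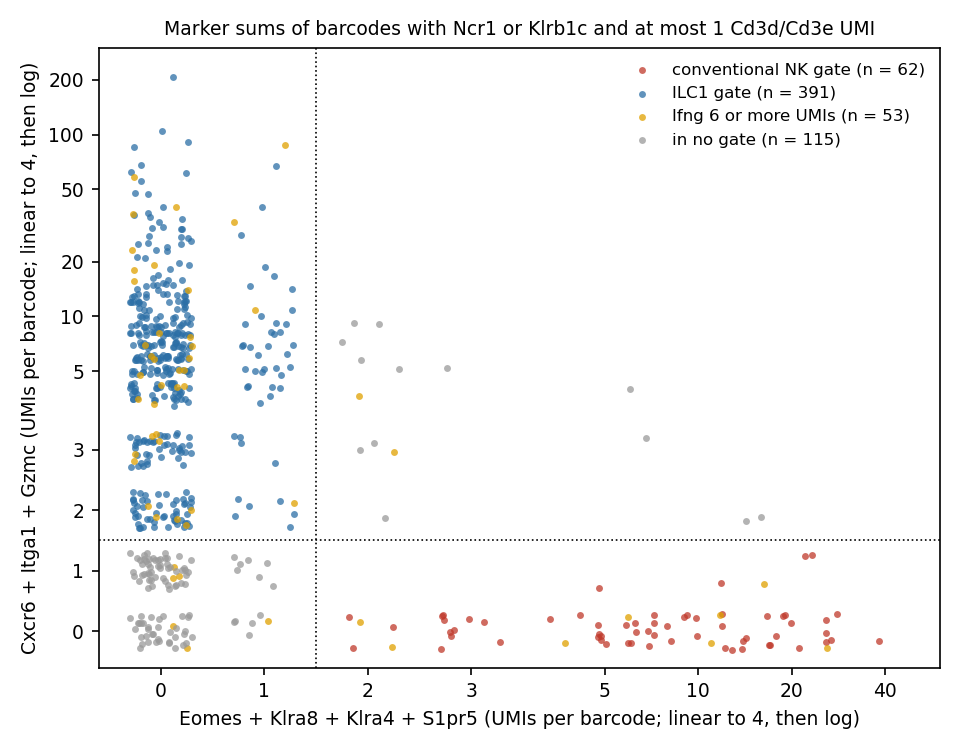
Summed UMIs of Eomes, Klra8, Klra4 and S1pr5 (horizontal) against those of Cxcr6, Itga1 and Gzmc (vertical) for the 621 barcodes with an NK receptor transcript; each point is a barcode, spread slightly at random, and both axes are linear to 4 and logarithmic above. The 62 conventional NK barcodes lie right of the vertical dotted line and below the horizontal one, the 391 ILC1 barcodes lie opposite, and only 13 barcodes with at most 5 Ifng UMIs pass both lines.

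The members sat well inside most of these limits. Their own sum was exactly 2 in 3 members, while 12 barcodes just outside had a sum of 1. Of the members, 58 held no UMI of the opposing genes and 4 held 1, while 3 barcodes just outside held 2. Ncr1 and Klrb1c summed to 1 in 8 members, and 47 barcodes that met every other condition had neither. Ifng was 0 in 33 members, 1 to 3 UMIs in 21 and 4 or 5 in 8, while 8 barcodes were left out for 6 or more. The 3 members with a sum of 2 had a median of 2126 UMIs and 1276 CPM of Gzma, against 7055 UMIs and 9516 CPM in the other 59.

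The genes of the gate are given as a description, since they chose the barcodes. Klra4, which encodes the activating receptor Ly49D, stood at 922 CPM in conventional NK cells and 15.8 CPM in ILC1. Klra8, which encodes the activating receptor Ly49H, stood at 112 CPM, against 0.417 CPM in ILC1. Eomes stood at 296 CPM, against 1.67 CPM in ILC1, and S1pr5, a receptor for the egress signal sphingosine 1-phosphate, at 76.1 CPM, against 0.834 CPM in ILC1. On the opposing side, Cxcr6 had no UMI in conventional NK cells, against 331 CPM in ILC1, Itga1 had 4.23 against 428 CPM in ILC1 and Gzmc 4.23 against 831 CPM in ILC1. The shared receptors Ncr1 and Klrb1c had 654 and 317 CPM in conventional NK cells, against 638 and 110 CPM in ILC1. Ifng, limited in both, had 152 CPM in conventional NK cells and 114 CPM in ILC1, and the T cell genes Cd3d and Cd3e had 2.11 and 0 CPM, against 7.09 and 1.25 CPM in ILC1. Gzma, the 5th label marker, was outside the gate and did not set the groups apart by presence: it had UMIs in 90.3% of conventional NK cells and 75.2% of ILC1.

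Klra4 carried most of the gate. It had a UMI in 57 of the 62 members, Eomes in 49, S1pr5 in 22 and Klra8 in 21, and each of the 21 members with Klra8 also had Klra4. Only 6 members entered by Klra4 alone, and 7 had all 4 genes. Counts of the rule's genes per cell are low, so a 0 does not show that a cell lacks the transcript. The Ly49 genes lie side by side on chromosome 6. Their starts are shown for 4 of them because these are the receptors the comparison turns on: both Ly49 genes of the gate, then Klra7, which was higher in conventional NK cells, and Klra5, which was lower. Each sequence is the RefSeq promoter window on GRCm38.p6, 250 bases before to 50 after the start, read 5′ to 3′; capitals mark the single match, at Klra4, to GGTGTG or its reverse complement CACACC, the core that T-box factors such as Eomes and T-bet bind.
Klra4 (chr6:130067222-130067521, minus strand): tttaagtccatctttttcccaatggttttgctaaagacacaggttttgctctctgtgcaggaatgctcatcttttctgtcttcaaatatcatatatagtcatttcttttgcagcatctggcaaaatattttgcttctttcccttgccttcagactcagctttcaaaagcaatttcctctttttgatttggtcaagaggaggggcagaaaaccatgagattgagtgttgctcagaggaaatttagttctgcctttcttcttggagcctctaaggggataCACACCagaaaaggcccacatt
Klra8 (chr6:130129849-130130148, minus strand): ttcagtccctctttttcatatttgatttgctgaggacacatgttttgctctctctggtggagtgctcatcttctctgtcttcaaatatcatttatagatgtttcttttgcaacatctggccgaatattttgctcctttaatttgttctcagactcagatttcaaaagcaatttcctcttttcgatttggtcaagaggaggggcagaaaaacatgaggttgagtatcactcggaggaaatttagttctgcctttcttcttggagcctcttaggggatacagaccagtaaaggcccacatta
Klra7 (chr6:130233273-130233572, minus strand): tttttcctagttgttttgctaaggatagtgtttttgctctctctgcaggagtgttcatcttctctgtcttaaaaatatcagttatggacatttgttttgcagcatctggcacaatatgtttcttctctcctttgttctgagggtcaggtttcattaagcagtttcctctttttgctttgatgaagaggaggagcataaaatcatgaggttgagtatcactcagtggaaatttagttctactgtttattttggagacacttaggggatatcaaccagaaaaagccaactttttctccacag
Klra5 (chr6:129913175-129913474, minus strand): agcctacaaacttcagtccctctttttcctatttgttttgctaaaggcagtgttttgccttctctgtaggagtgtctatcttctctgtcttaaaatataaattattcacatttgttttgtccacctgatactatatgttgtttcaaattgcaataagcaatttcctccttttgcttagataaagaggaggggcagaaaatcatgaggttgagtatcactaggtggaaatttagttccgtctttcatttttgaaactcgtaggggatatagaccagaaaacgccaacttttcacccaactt
The Klra4 and Klra8 windows were identical at 86.1% of aligned positions, the closest pair, and Klra5 matched Klra4 at 66.2% and Klra8 at 70.2%. Klra7 matched them at 73.7%, 74.3% and 70.6% for Klra4, Klra8 and Klra5. RefSeq gives 1 start for Klra5, and its window lies inside the annotated gene, whose 5′ end is at 129917650. The other windows cover the annotated 5′ ends of their genes, so the Klra5 window is not placed like them. The 6-letter core was found in 19.0% of all 32851 promoter windows of the table, so its presence at Klra4 is a description and no more.

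Across the whole transcriptome, 3465 genes reached 50 CPM in either gate, without the 12 gate genes. Of these, 138 (3.98%) were at least 2-fold higher in conventional NK cells and 232 (6.70%) at least 2-fold lower, with the same direction in each of the 3 libraries. The lower ones include 5 of the 6 tested genes of a sinusoidal endothelial list. Its genes Stab2 and Clec4g had UMIs in 28 ILC1 barcodes and 1 conventional NK barcode. The median log2 ratio of all tested genes was 0.02. Below, called means past this rule, and a list's count of called members is set against these shares.

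NK receptors differed gene by gene and not as a group. Of 34 listed receptors with a row, 21 were tested, 6 were higher and 5 lower, with a median log2 ratio of 0.12. The higher ones were the inhibitory Ly49 genes Klra7, Klra3 and Klra9, the inhibitory receptors Klrg1 and Lair1, and the adhesion receptor Crtam. Klra7 (Ly49G) stood at 602, 758 and 556 CPM in conventional NK cells of suffixes 1, 2 and 3, against 75.6, 27.5 and 22.5 CPM in ILC1. Klra7 was higher in conventional NK cells in each library, and the pooled ratio was 19.6 (15.4 to 25.2). Klrg1 stood at 136, 107 and 64.6 CPM, against 2.04, 3.92 and 4.49 CPM in ILC1, a ratio of 28.2 (13.7 to 65.2). Klra3 (61.3 against 3.34 CPM in ILC1) and Klra9 (180 against 39.2 CPM in ILC1) had ratios of 18.4 and 4.59. Klra1, which encodes Ly49A, was 1.94-fold higher and just under the 2-fold limit.

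Klra5 (Ly49E) went the other way: it had 0, 9.76 and 0 CPM in conventional NK cells by suffix, against 321, 416 and 357 CPM in ILC1. Its 3 UMIs in conventional NK cells give a ratio of 0.0169 (0.00348 to 0.0496), and it was seen in 2 members, against 146 ILC1 barcodes. Without the limit on Ifng the ratio was 0.0763. The other lower receptors were Cd226, Cd160, Cd96 and Slamf7, with ratios of 0.261, 0.429, 0.455 and 0.456. Cd226 and Cd96 compete for the same ligand family, and Slamf7 is an activating receptor. Receptors shared by both groups were close, with 871 against 955 CPM in ILC1 for Klrd1 (CD94) and 842 against 777 CPM in ILC1 for Klrk1 (NKG2D). Ly49 genes are near-copies, which can split reads between them. In the last 500 transcript bases, where 3' reads fall, no 90-base window of Klra4, Klra8, Klra5 or Klra1 was shared with another Klra gene, while 5.15% were for Klra3, 6.57% for Klra7 and 12.4% for Klra9.

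**Figure D2:**
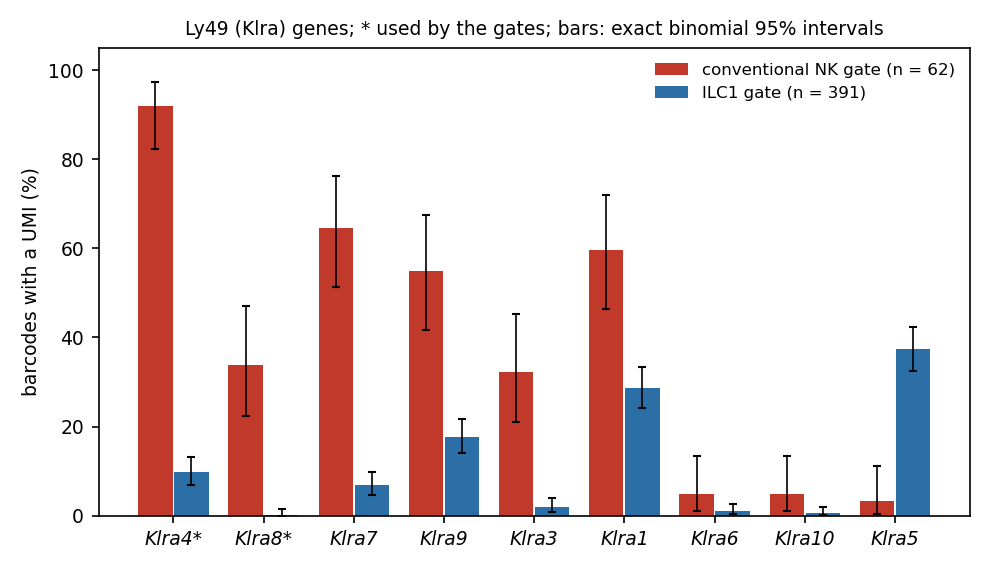
Percentage of barcodes with a UMI of each Ly49 (Klra) gene in the conventional NK gate (red, n = 62) and the ILC1 gate (blue, n = 391), with exact binomial 95% intervals; an asterisk marks genes the gates use. Klra7 was seen in 64.5% of conventional NK and 6.91% of ILC1 barcodes, and Klra5 in 3.23% and 37.3%.

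Most members held several Ly49 transcripts at once. A total of 45 of 62 (72.6%, 59.8 to 83.1%) had UMIs of at least 3 Klra genes and 2 had none, a count that the gate fixes in part, since it uses Klra4 and Klra8. Without these 2 genes, 44 members (71.0%, 58.1 to 81.8%) had at least 2 Klra genes and 26 had at least 3. Klra7 was found in 40 members, 39 of which also had Klra4. No barcode of the 882 in a sinusoidal endothelial gate (median 5994.5 UMIs), cells that should lack these receptors, held Klra4, Klra7 or Klra8. A floor of 3 barcodes would be a share of 0.340% there, which is not an upper confidence limit. That gate leaves out barcodes with NK receptor or Cd3d and Cd3e UMIs. Without this limit 896 barcodes met the endothelial rule, of which 2 held Klra4, 2 Klra7 and none Klra8.

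The granule genes were split between the groups. Gzma, which encodes granzyme A, was 1.41-fold higher in conventional NK cells (1.37 to 1.46), Gzmb, which encodes granzyme B, was lower at 0.271-fold (0.245 to 0.300), and Prf1, which encodes the pore-forming perforin, was 3.34-fold higher (2.96 to 3.78). Gzma stood at 7756, 9886 and 8715 CPM by suffix in conventional NK cells, against 6221, 7147 and 6126 CPM in ILC1. Gzmb stood at 1124, 882 and 608 CPM, against 3489, 3324 and 3030 CPM in ILC1. Prf1 stood at 772, 1057 and 646 CPM, against 268, 283 and 284 CPM in ILC1. For all 3 genes the direction was the same in each library. Over barcodes, the conventional NK median per 10000 UMIs was 94.3 for Gzma, 5.07 for Gzmb and 8.16 for Prf1, and the ILC1 median was 38.3, 21.5 and 1.88 for the same genes.

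**Figure D3:**
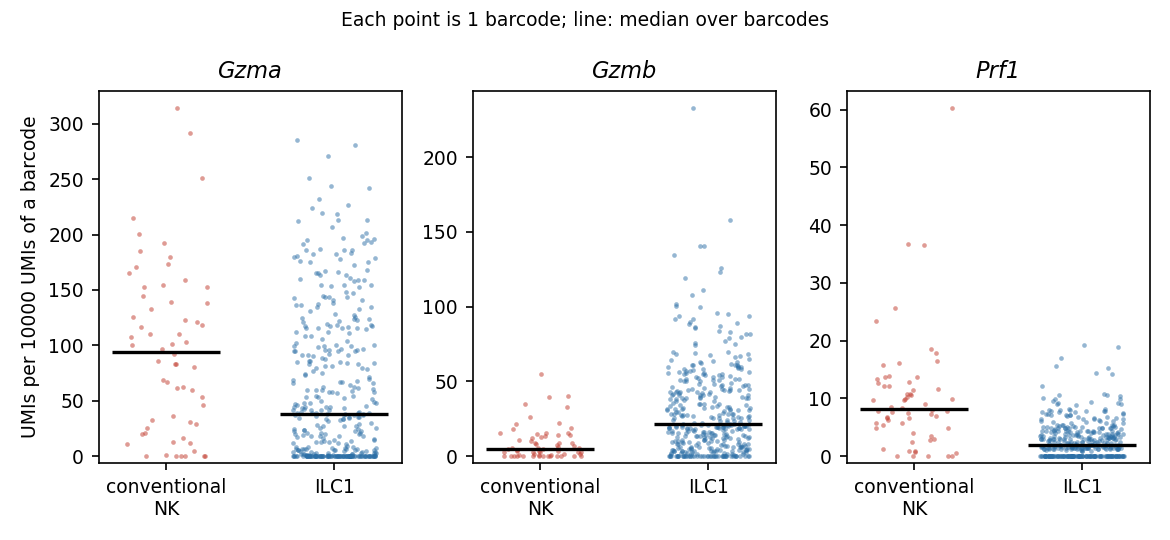
UMIs of Gzma, Gzmb and Prf1 per 10000 UMIs of a barcode in conventional NK (red, n = 62) and ILC1 barcodes (blue, n = 391); points are barcodes and lines are medians. The conventional NK median lies above the ILC1 one for Gzma (94.3 against 38.3) and Prf1 (8.16 against 1.88) and below it for Gzmb (5.07 against 21.5), and barcodes of both groups overlap in every panel.

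When each barcode was thinned to 2000 UMIs, which left 59 conventional NK and 359 ILC1 barcodes, Prf1 was found in 78.0% of conventional NK and 40.7% of ILC1 barcodes, and Gzmb in 62.7% of conventional NK and 86.4% of ILC1 barcodes. Unthinned, Prf1 was found in 91.9% of conventional NK and 68.0% of ILC1 barcodes, and Gzmb in 77.4% and 88.0% in the same groups. In endothelial barcodes the shares were 0.113% for Prf1 and 1.81% for Gzmb, and 0.558% and 2.12% in the 896 without the limit on NK receptor and T cell UMIs. Of the 20 cytotoxic genes listed, 17 were tested, 3 were called higher and 2 lower. Besides Prf1, the higher ones were Serpinb6b (2.46-fold) and Serpinb9 (2.29-fold), inhibitors that in mice protect the killer cell from its own granzymes. The lower ones were Gzmb and Tnfsf10, which encodes the death ligand TRAIL (10.6 against 238 CPM in ILC1). The list sum was 17469 CPM in conventional NK cells and 15772 CPM in ILC1, a ratio of 1.11 that in the library of suffix 3 came to 15347 against 15297 CPM in ILC1. Nkg7, a granule protein, was 1.59-fold higher, while the protease Ctsw and the granule proteoglycan Srgn were at 0.618 and 0.738-fold.

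Genes of traffic through blood and lymphoid organs were divided between the groups. Klf2, the transcription factor that drives S1pr1 in lymphocytes, was 7.48-fold higher (6.10 to 9.20), at 499 against 66.7 CPM in ILC1. S1pr1 itself was at 2.11 CPM in conventional NK cells and 4.59 CPM in ILC1, too low for a fold.

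Of 30 genes of egress, homing and adhesion, 21 were tested, 7 were called higher and 3 lower, with a median log2 ratio of 0.39. The integrin Itga4 was at 677 against 76.7 CPM in ILC1 (8.82-fold), Itga2, which encodes the NK marker CD49b, at 152 against 21.3 CPM in ILC1 (7.16-fold) and Itgam at 135 against 12.1 CPM in ILC1 (11.2-fold). Cxcr4, the receptor for a bone marrow chemokine, was 14.2-fold and the monocyte chemokine receptor Ccr2 2.25-fold higher. Cxcr3, Itgb7 and Rgs1, a brake on chemokine receptor signalling, were lower at 0.367, 0.421 and 0.183-fold. Rgs1 stood at 68.1, 319 and 595 CPM in conventional NK cells by suffix, against 1735, 1374 and 2153 CPM in ILC1. The list sum was 5630 against 5955 CPM in ILC1 (0.945). Without the gate genes S1pr5, Cxcr6 and Itga1 it was higher in conventional NK cells, at 1.07-fold in the pooled sum and in 2 of 3 libraries.

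**Figure D4:**
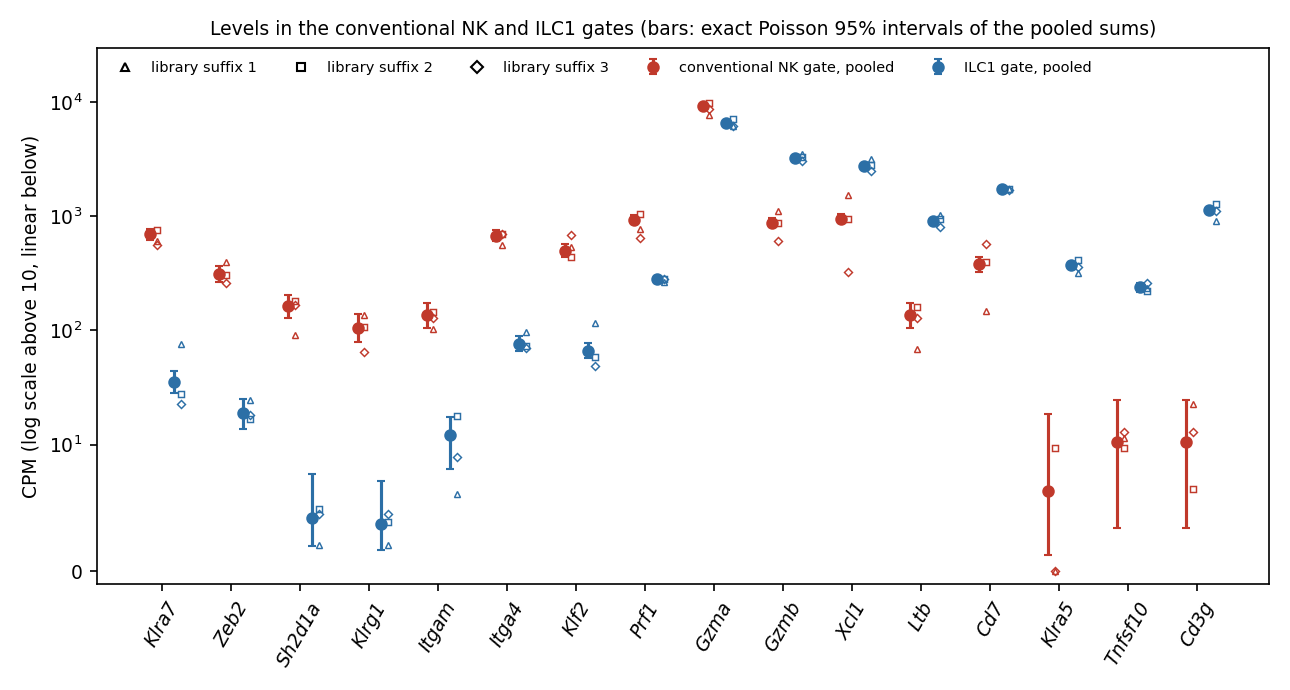
CPM of 16 genes in the conventional NK gate (red) and the ILC1 gate (blue), on an axis that is linear below 10 and logarithmic above; filled points are pooled sums with exact Poisson 95% intervals and open symbols are the 3 libraries. From Klra7, at 696 against 35.4 CPM in ILC1, to Gzma conventional NK cells stand higher, and from Gzmb to Cd3g, at 10.6 against 1141 CPM in ILC1, they stand lower.

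Transcription factors followed the same division gene by gene. Of 30 listed, 21 were tested, with 5 called higher, 3 lower and a median log2 ratio of 0.02. Zeb2, which in mice acts with T-bet in late NK maturation, stood at 397, 306 and 259 CPM in conventional NK cells by suffix, against 24.5, 16.7 and 18 CPM in ILC1, a ratio of 16.8 (12.0 to 24.0). Irf8, a factor for NK responses to virus in mice, was at 912 against 226 CPM in ILC1 (4.03-fold, 3.55 to 4.59). Tcf7 and Prdm1 were 6.52 and 3.13-fold higher. Ikzf2 (Helios), Ahr and Tox were lower, at 0.282, 0.372 and 0.408-fold, and without the library of suffix 2 Ikzf2 was at 0.552 and no longer past the 2-fold limit. Tbx21, which encodes T-bet and is needed by both lineages, was at 127 against 112 CPM in ILC1 (1.14-fold, 0.844 to 1.51), a difference inside the counting error. Id2, the common factor of innate lymphoid cells, was at 941 against 1406 CPM in ILC1.

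Most tested genes of NK maturation were higher in conventional NK cells. Of 20 genes, 14 were tested, 8 were called higher and 2 lower, and the median log2 ratio was 2.23. Besides Klrg1, Itgam and Itga2, the higher ones included Lgals1 (1624 against 527 CPM in ILC1, 3.08-fold), Emb (127 against 7.50 CPM in ILC1), Ly6c2 and Cma1. Cma1, which encodes a chymase first known from mast cells, had 50 UMIs in 18 conventional NK barcodes of all 3 libraries. ILC1 had none. With ILC1 set to a floor of 3 UMIs the ratio was 84.5, and the exact interval began at 66.2. The basophil and mast cell markers Mcpt8 and Cpa3 had no UMI in conventional NK cells. Of the Ly6c2 UMIs, 46.2% came from 1 barcode. Cd7 and Ly6e were lower, at 0.221 and 0.488-fold. Cd27, a marker of less mature cells, was at 93.1 against 110 CPM in ILC1, a ratio of 0.849 with an interval of 0.602 to 1.17.

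Cd27 and Itgam were too sparse to place single members in maturation stages. UMIs of Cd27 without Itgam were found in 18 members, of both in 8, of Itgam without Cd27 in 16 and of neither in 20. Klrg1 was found in 22 members. Cma1 was found in 18, of which 11 also had Itgam and 11 Klrg1. Depth bears on such counts: the median was 8548.5 UMIs in the 26 members with a Cd27 UMI and 6418 in the 36 without, and its part in the split was not tested. For Itgam the medians were 7112 UMIs with it and 6577 without.

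Liver ILC1 genes that the gates did not use were lower in conventional NK cells as a group. Of 23, 16 were tested and 13 were called lower, none higher, with a median log2 ratio of -3.0. Their sum was 2237, 2001 and 1616 CPM by suffix in conventional NK cells, against 7766, 6814 and 7253 CPM in ILC1, a ratio of 0.276 (0.258 to 0.295). Tnfsf10 stood at 11.4, 9.76 and 12.9 CPM, against 237, 221 and 260 CPM in ILC1. Il7r, the IL-7 receptor, was at 8.46 against 86.3 CPM in ILC1 and Cd200r1 at 10.6 against 126 CPM in ILC1. Inpp4b, a lipid phosphatase, was at 8.46 against 174 CPM in ILC1 and Podnl1 at 0 against 119 CPM in ILC1. With conventional NK cells set to a floor of 3 UMIs, Podnl1 was 18.7-fold lower, and the exact interval began at 15.1-fold. The chemokine Xcl1 (956 against 2771 CPM in ILC1) and the lymphotoxin chain Ltb (137 against 908 CPM in ILC1) were at 0.345 and 0.151-fold.

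The T cell receptor complex gene Cd3g was the named gene with the largest difference in the lower direction. It stood at 22.7, 6.51 and 12.9 CPM in conventional NK cells by suffix, against 905, 1273 and 1119 CPM in ILC1. It was seen in 3 of 62 conventional NK and 243 of 391 ILC1 barcodes, and the ratio was 0.00927 (0.00301 to 0.0217). In a T cell gate it stood at 1219 CPM. Trbc2, a T cell receptor beta constant segment, was at 163 against 570 CPM in ILC1. Trdc, the delta constant segment, went the other way at 67.7 against 3.75 CPM in ILC1 (18-fold, 8.41 to 43.0), and Cd28 was 2.78-fold higher. The ILC1 gate allowed Cd3d and Cd3e the same single UMI as the conventional NK gate.

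Other genes were named by the size of their difference. Among those higher in conventional NK cells, Sh2d1a, which encodes SAP, the adaptor of SLAM family receptors in NK and T cells, was at 163 against 4.17 CPM in ILC1 (39.1-fold, 20.1 to 84.7). Phactr3, a phosphatase and actin regulator, was 68.5-fold higher (17.2 to 594) on 27 UMIs in conventional NK cells and 2 in ILC1. As3mt, an arsenic methyltransferase, was 25.4-fold higher (9.54 to 84.8). Khdc1a had 25 UMIs in conventional NK cells and 0 in ILC1. With ILC1 set to a floor of 3 UMIs its ratio was 42.3, and the exact interval began at 31.9. These ratios rest on few UMIs: thinned to 2000 UMIs per barcode Phactr3 was 8.11-fold higher. Without the library of suffix 2 As3mt was 108-fold and Khdc1a, at the floor, 13.9-fold higher. Among those lower were Asb2, a ubiquitin ligase subunit (4.23 against 164 CPM in ILC1), Socs2, a brake on cytokine signalling (2.11 against 68.0 CPM in ILC1), Ckb, creatine kinase (4.23 against 109 CPM in ILC1), Atp8a2, Ccdc136, Tmem176b and 1810011H11Rik, each on 1 or 2 conventional NK UMIs. Their ratios lay between 0.0258 (0.00312 to 0.0939) for Asb2 and 0.0476 (0.00573 to 0.174) for Tmem176b. For all of these but Ckb the conventional NK UMIs lay in the library of suffix 2 alone. Without that library the conventional NK cells had none, and Asb2 and Socs2 at the floor of 3 UMIs had ratios of 0.108 and 0.294. In the ranking, sums of 1 or 2 UMIs were used as they are. Ptprb and Podnl1, at 0 UMIs, were set to 3 and so ranked behind these genes, at 0.0532 and 0.0534.

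Of the 15 named lower genes, 3 are genes of sinusoidal endothelial cells. Gpr182 was at 2.11 against 55.9 CPM in ILC1, Igfbp7 at 4.23 against 87.6 CPM in ILC1 and Ptprb at 0 against 119 CPM in ILC1, and these stood at 1754, 3017 and 4930 CPM in the endothelial gate. The endothelial markers Stab2, Clec4g and Kdr summed to 2.11 CPM in conventional NK cells (1 UMI, Clec4g and Kdr at 0) and 173 CPM in ILC1, where 37 barcodes held them. Without the barcodes that held 3 or more UMIs of another cell type's markers, the ratio was 0.393 for Gpr182 and 0.568 for Igfbp7, and the ILC1 level of Ptprb left no fold to give. Set against all 5 other gates (ILC1, Ifng-high, T cell, sinusoidal endothelial and plasmacytoid dendritic), the 10 genes that stood out most in conventional NK cells were Cma1 (8.20-fold above the next gate), Phactr3 (7.38), Itgam (6.56), Klra7 (6.0), Klra3 (4.76), Gm28875 (4.13), Itga2 (3.94), Pogk (3.32), Klra9 (3.32) and Borcs7 (3.12). For Cma1, Phactr3, Itga2, Itgam, Klra7, Klra3 and Klra9 the next gate was Ifng-high, which held 53 barcodes with 6 or more Ifng UMIs, 8 of them otherwise inside the conventional NK gate.

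Signalling genes were divided too. Of 24 adaptors and proximal signalling genes, 21 were tested, 3 were called higher and 3 lower. The higher ones were Sh2d1a, the receptor chain Cd247 (3.24-fold) and the kinase Fyn (2.06-fold), and the lower ones were Zap70, the phosphatase Ptpn6 (SHP-1) and the adaptor Lcp2 at 0.368, 0.369 and 0.482-fold. Tyrobp, which encodes DAP12, the signalling partner of the activating Ly49 receptors, was at 2453 against 2116 CPM in ILC1. Of 24 cytokine receptors, 17 were tested, 2 were called higher and 6 lower. Both chains of the IL-18 receptor were higher, Il18rap at 281 against 64.6 CPM in ILC1 (4.35-fold, 3.43 to 5.52) and Il18r1 at 99.4 against 15.8 CPM in ILC1 (6.27-fold). In the library of suffix 3 Il18r1 was at 25.9 against 23.6 CPM in ILC1, and without the library of suffix 2 it was 3.13-fold higher. The TGF-beta receptors Tgfbr1 and Tgfbr2 were lower, at 0.247 and 0.459-fold, as were Il7r, Tnfrsf18, Il21r and Il27ra.

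Of 21 cytokines and chemokines, 8 were tested, none was called higher and 3 were lower: Xcl1, Ltb and Ccl1. Ccl1 had no UMI in conventional NK cells, and its ILC1 level was 403, 4.91 and 40.5 CPM by suffix. The list sum was higher in conventional NK cells, at 20843 against 17359 CPM in ILC1 (1.2-fold, 1.17 to 1.23). Ccl5, which encodes the chemokine RANTES, held most of it, at 16737, 17244 and 15567 CPM by suffix, against 10223, 12458 and 11852 CPM in ILC1 (1.43-fold). Ccl4 was 1.62-fold higher in the pooled sum and 1.05-fold without the library of suffix 2, and in the library of suffix 1 it was at 1124 against 1159 CPM in ILC1. Ccl3 was 3.47-fold higher in the pooled sum but in the library of suffix 3 at 90.5 against 220 CPM in ILC1, and 30.7% of its conventional NK UMIs came from 1 barcode.

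Cell cycle genes were higher in the pooled sum, but not in every library. The list of 23 genes summed to 4531, 3669 and 1099 CPM in conventional NK cells by suffix, against 858, 1577 and 1393 CPM in ILC1, so the library of suffix 3 went the other way. The pooled ratio was 2.50 (2.36 to 2.66), and 18.5% of the UMIs lay in 1 barcode. Of 13 tested, 4 were called higher: the replication genes Mcm3, Mcm5 and Mcm7 and the tubulin Tuba1b. Mki67 or Top2a, genes of dividing cells, had a UMI in 13 of 62 members (21.0%, 11.7 to 33.2%), with 4 of 11, 9 of 41 and 0 of 10 by suffix. In ILC1 this was 29 of 391 (7.42%, 5.02 to 10.5%) and in endothelial barcodes 22 of 882 (2.49%). Without the barcodes with such a UMI the list ratio was 1.04. Both genes belong to the list, so leaving these barcodes out lowers its sum in part by selection. Of 21 immediate early genes tested among 26, Nr4a1 (5.55-fold), Nr4a2 (2.48-fold), Fos (2.01-fold) and Egr1 (4.0-fold) were called higher and none lower. The whole list summed to 7324 against 7383 CPM in ILC1 (0.992, 0.956 to 1.03) and was higher in conventional NK cells in 2 of 3 libraries. The Egr1 value rested for 57.7% on 1 barcode.

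Endocytosis genes, which bear on how a nanoparticle could enter a cell, differed by list. The 16 actin and macropinocytosis genes summed to 9477 against 8313 CPM in ILC1 (1.14-fold, 1.10 to 1.18), with 14 tested and none called. The clathrin coat genes summed to 1077 against 1284 CPM in ILC1 (0.839, 0.762 to 0.921), lower in each library, with 10 tested and only Hip1 called, lower. Early and recycling endosome genes stood at 1199 against 1085 CPM in ILC1 (1.10, 1.01 to 1.21), with 14 tested and only Ehd3, which acts in endosome recycling, called, lower at 0.153-fold. Late endosome and lysosome genes stood at 1728 against 2015 CPM in ILC1 (0.857, 0.795 to 0.923), lower in each library, and of 9 tested the lysosomal proteases Ctsb and Ctsl were called lower, at 0.468 and 0.395-fold. Caveolar genes had 1 UMI in all conventional NK cells, 2.11 CPM, against 33.4 CPM in ILC1 (0.0634, 0.00159 to 0.364), with none abundant enough to test. For scale, the endothelial gate stood at 3074 CPM for the actin list and 2977 CPM for the clathrin list. It stood at 3943 CPM for the early endosome list, 7434 CPM for the late endosome list and 1462 CPM for the caveolar list. The ILC1 gate held some barcodes with endothelial transcripts. Without barcodes that held another type's markers, the late endosome ratio turned its direction. Without the same barcodes the ratio was 1.13 for the actin list, 0.871 for the clathrin list and 1.18 for the early endosome list. The caveolar ratio was not recomputed in this way. The part of endothelial transcripts alone was not tested, since barcodes with markers of any other type were left out together.

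**Figure D5:**
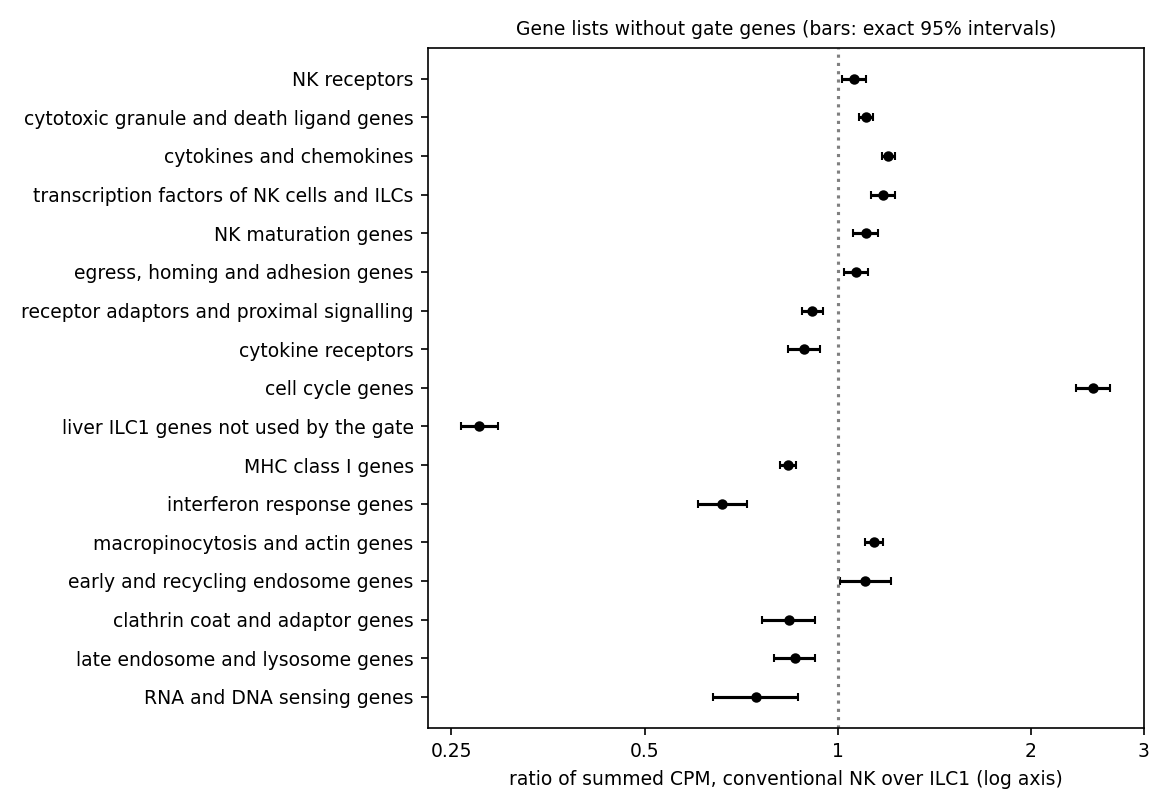
Ratio of summed CPM, conventional NK over ILC1, for 17 gene lists without gate genes, on a logarithmic axis; bars are exact 95% intervals of counting error and the dotted line marks equal levels. Cell cycle genes stand highest at 2.50 and liver ILC1 genes lowest at 0.276, while the NK receptors stand at 1.06.

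The short marker sets of most other cells had few UMIs in the gate. Those of B cells (Cd79a, Ms4a1), neutrophils (S100a8, S100a9, Retnlg) and basophils or mast cells had no UMI. Macrophage markers had 4 UMIs, conventional dendritic ones (Xcr1, Clec9a, Cd209a) 2, erythroid ones 2 and endothelial ones 1. T cell markers had 14 UMIs in 9 barcodes and hepatocyte ones 18 in 12. Longer lists held more. The 10 conventional dendritic genes had 240 UMIs, 35.0% in 1 barcode, at 508 against 974 CPM in ILC1. The 10 plasmacytoid dendritic genes had 245 UMIs, 34.7% in 1 barcode, at 518 against 317 CPM in ILC1. Of the monocyte markers, Lyz2 had none while Ly6c2 and Ccr2 had 162 UMIs together in 40 barcodes. Plasmacytoid dendritic markers (Siglech, Ccr9, Cox6a2) had 80 UMIs, 54 of them in 1 barcode, which came to 613, 84.6 and 0 CPM by suffix, against 87.9, 66.7 and 6.74 CPM in ILC1. Scrublet, a doublet caller, marked 2 members. Without the barcodes that held 3 or more UMIs of another type's markers (3 conventional NK and 17 ILC1), Irf8 and Zeb2 moved by less than 1.5 times, as did Prf1, Gzma, Klra7 and Klrg1. No barcode sequence of a member occurred in another library.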

How the data were processed

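Droplet 3' libraries (10x kit version 3) of sorted mouse liver non-parenchymal cells were analysed. The authors deposited UMI counts, not normalized, for 31053 genes and 4638 barcodes. Per the file headers they come from Cell Ranger 3.1.0, and per the submitters' processing notes from build mm10. These notes also name STAR, Seurat and edgeR. The matrix holds 24111183 UMIs, and libraries of suffixes 1, 2 and 3 hold 6144949, 8754827 and 9211407. The filter removed 1408 barcodes, 200 for few genes and 1300 for mitochondrial UMIs, 92 of them for both. The sample sheets were not used. Some genes are not reported here.

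UMIs were summed per gate with Python 3.11.15 (numpy 2.4.6, scipy 1.17.1). Ratios have exact conditional intervals, levels exact Poisson and shares exact (Clopper-Pearson) binomial intervals, all 95%. The interval calculation was tested on simulated data. A gene was called at 2-fold or more with the same direction in each library, among genes at 50 CPM or more. A gate at 0 was set to 3 UMIs over the gate for a ratio, and in list medians, while sums of 1 or 2 UMIs were kept. No test was run: measured UMIs chose both gates, each treatment has 1 library and barcodes are not replicates. The 5 comparison gates used UMI limits: for T cells at least 2 of Cd3d and Cd3e, for endothelial cells at least 2 of Stab2 and Clec4g, for plasmacytoid dendritic cells at least 3 of Siglech and Ccr9, each without NK receptor UMIs. Doublets were not removed, except in an alternative (Scrublet in scanpy 1.11.5, called 23 kept barcodes).

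Named genes are the 15 higher and 15 lower with the largest ratio (50 CPM or more, same direction in each library, without gate, mitochondrial and ribosomal protein genes), the 10 that stood out most from the other gates, and from each list the most abundant and any called members, of which a selection is given. Genes just under a limit were chosen after their values were seen. Members, lists and rules were chosen with earlier results of these data known. Of the members of 32 lists, 3 had no row (Gp49a, Klra13-ps, Klrh1). Gene identifiers were matched to GENCODE M21 (565 of 565); all 4 promoters sought were in the RefSeq table. Where it gives several starts, the one nearest the annotated 5' end was used. Alternatives changed the filter, gates, scaling (edgeR 4.0.16 TMM in R 4.3.3), depth, CPM minimum and libraries.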

Additional observations from a re-analysis of the deposited data

Results flagged for a closer look

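Outside both gates, 13 barcodes had an NK marker sum and an ILC1 marker sum of 2 or more. They are given because no comparison used them, which also holds for the 102 barcodes in which neither sum reached 2. They lay in all 3 libraries, 2, 7 and 4 by suffix. Their median depth was 6927 UMIs, against 6960 in conventional NK cells and 6242 in ILC1. In their sum Klra7 stood at 235 CPM, against 696 in conventional NK cells and 35.4 in ILC1, and Cd3g at 694 CPM, against 10.6 in conventional NK cells and 1141 in ILC1. Tnfsf10 stood at 270 CPM, against 10.6 in conventional NK cells and 238 in ILC1. Gzma, at 3516 CPM, was lower than in conventional NK cells (9297) and in ILC1 (6579).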

How the results depend on the processing

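No paired test was run, although each library holds both gates. Both gates were chosen by UMIs of the same barcodes, and libraries were compared as values, each within itself. Leaving out each library in turn gave 21 to 52 members, 134 to 250 genes called higher and 221 to 422 called lower; without suffix 2 these were 21, 250 and 422, with 1 library fewer to agree. Thinning to 2000 UMIs gave 220 higher and 349 lower, and a minimum of 20 CPM gave 262 and 543.

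List ratios (conventional NK over ILC1) were as follows. Without 1 library: NK receptors 1.08 to 1.32, cell cycle 2.11 to 2.87, cytokines 1.14 to 1.22, cytotoxic 1.02 to 1.12, egress 0.895 to 0.982, transcription factors 1.19 to 1.37, maturation 1.09 to 1.12 and ILC1 genes 0.262 to 0.288. Thinned: egress 1.01 (turned), cell cycle 2.76, cytokines 1.35, cytotoxic 1.16, ILC1 genes 0.298, transcription factors 1.31 and, turned, cholesterol synthesis 0.981. With libraries weighted equally: NK receptors 1.19, cytokines 1.16, cytotoxic 1.06 and transcription factors 1.30. Without gate genes: NK receptors 1.06, egress 1.07 (turned) and transcription factors 1.18. Without mitochondrial and ribosomal genes: cytokines 1.23 and cytotoxic 1.14. With stricter gates: cytokines 1.24. Without the Ifng limit: cell cycle 2.36.

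The 2 alternatives chosen after seeing the data follow. Without barcodes with another type's markers, cell cycle was 2.97 and, turned, late endosome 1.01 and conventional dendritic 1.68. Without barcodes with Mki67 or Top2a, cell cycle was 1.04, cytokines 1.40, maturation 1.05, ILC1 genes 0.313 and, turned, plasmacytoid dendritic 0.617 and conventional dendritic 1.25. With no such change, the plasmacytoid list stood at 1.63 (1.41 to 1.89) and the conventional dendritic list at 0.521 (0.454 to 0.595). Apart from these 2 alternatives, leaving out 1 library with all other barcodes kept gave conventional dendritic ratios of 0.255 to 2.37 (2.37, turned, without suffix 2). The cause of these turns was not tested. Of the 74 genes recomputed, no called one turned its direction. Without suffix 2, As3mt was 108-fold and Cxcr4 30.6-fold higher, and at the floor of 3 UMIs Cma1 was 33.4-fold and Khdc1a 13.9-fold higher. Klra5, then with no UMI in conventional NK cells, was at 0.0527 at the floor of 3 UMIs. Ikzf2, at 0.552, no longer passed the 2-fold limit. Without suffix 3, Il18r1 was 10.1-fold and Trdc 29.2-fold higher, and without suffix 1 Emb was 27.6-fold higher. In 15 alternatives, 828 of the gene values stayed inside their counting interval and 103 moved out of it. Among named genes, thinning moved Phactr3 to 8.11, Cma1 to 22.3 at the floor and Gpr182 to 0.589, since few UMIs remain. Precision is set by 62 barcodes, most from suffix 2, and by the 3-UMI floor of 6.34 CPM.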

Other observations

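MHC class I genes were somewhat lower in conventional NK cells. The 14 genes summed to 12385 CPM, against 14799 CPM in ILC1 (0.837, 0.814 to 0.860), lower in each library, with only Nlrc5, a factor for MHC class I transcription, called (0.486). Interferon response genes summed to 1214 against 1837 CPM in ILC1 (0.661, 0.605 to 0.721), and of 9 tested among 31 only Ifi203 was called, lower at 216 against 549 CPM in ILC1. Heat shock genes were close, at 8255 against 8094 CPM in ILC1, with only Dnajb1 called (0.487). Cholesterol synthesis genes stood at 421 against 331 CPM in ILC1, with 1 of 22 abundant enough to test, and RNA and DNA sensing genes at 412 against 553 CPM in ILC1. The B cell list had 1 tested gene, Ighm, at 86.7 against 183 CPM in ILC1, while Cd79a and Ms4a1 had no UMI in conventional NK cells. Hepatocyte and haemoglobin lists stood at 82.5 against 141 CPM in ILC1 and 8.46 against 28.4 CPM in ILC1, with no member tested.

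The 8 barcodes left out of the gate for 6 or more Ifng UMIs resembled the members in part. They had 524 CPM of Klra7, 196 of Zeb2 and 262 of Klrg1, and the 62 members had 696, 315 and 106 CPM of the same genes. Klra5 stood at 196 CPM in these 8 and 6.34 CPM in the members. With 61118 UMIs in all, these values describe a small sum.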
